A study of Mus musculus with 8 samples.

Results

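The MYC, MAX and MXD network is a set of related transcription factors, and its 10 members examined here were Myc, Mycn, Mycl, Max, Mxd1, Mxd3, Mxd4, Mxi1, Mnt and Mga. They were chosen by name, and all 10 had a probe set annotated with that symbol alone among the 22180 named genes of the array. Their expression was read on 8 single-colour microarrays, each hybridised with RNA from marrow cells of C57/Bl6 mice whose age label is 8 weeks. The long-term stem cells (LT-HSC, 2 arrays, numbered replicates 1 and 3) were sorted as CD48-CD150+CD34-Lin-Sca1+Kit+. The short-term stem cells (ST-HSC, 3 arrays) were sorted as CD48-CD150+CD34+Lin-Sca1+Kit+, and multipotent progenitors (MPP, 3 arrays) as CD48+CD150-CD34+Lin-Sca1+Kit+. The labels describe all groups as untreated, yet a protocol shared by all groups mentions 2 hours of DMSO and passage through transplanted recipients, 1 year in the first and 3 months in the second. No label says whether the arrays stem from separate animals, and p-values therefore measure only how these samples vary, which may be technical variation.

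MYC, MYCN and MYCL bind DNA as partners of MAX and activate genes of growth, ribosome production and metabolism. The MXD proteins (Mxd1, Mxd3, Mxd4 and Mxi1), MNT and MGA compete for the same partner, and the MXD proteins and MNT bring the SIN3 and histone deacetylase co-repressor to the same DNA element, the E-box. In mouse bone marrow, loss of Myc from hematopoietic cells is known to let stem cells accumulate in the niche at the expense of progenitors, and Myc and Mycn are known to act together in stem cell survival. The question taken from the design is therefore how the members differ across the steps from LT-HSC through ST-HSC to MPP.

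The canonical E-box, CACGTG, is the element that links the members, and it was searched for in the promoters of the members themselves. RefSeq promoter windows of the mouse build GRCm38.p6, reaching from 250 bases before to 50 bases after the annotated gene start, were at hand for 9 members in 11 windows, all but Myc. CACGTG equals its own reverse complement, so 1 search covers both strands, and no other motif was searched. It was found in 3 of the 9 genes, Max, Mxd4 and Mnt, whereas 7.15% of all 32851 windows and 8.09% of all 27025 genes hold it. A match is a description of the letters and not a measured binding site. The stretches of 60 bases that hold it are shown 5′ to 3′ on the gene's strand, with the E-box in capitals, because these are the members whose own promoter carries the network's element.
Mxd4, chr5:34187897-34187956, minus strand: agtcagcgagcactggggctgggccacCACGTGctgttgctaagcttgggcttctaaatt
Mnt, chr11:74830774-74830833, plus strand: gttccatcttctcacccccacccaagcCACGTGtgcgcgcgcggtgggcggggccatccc
Max, chr12:76962246-76962305, minus strand: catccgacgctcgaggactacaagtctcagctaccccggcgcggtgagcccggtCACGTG
The first base of the element lies 219 bases before the start of Mxd4, 123 bases before that of Mnt and 3 bases before that of Max, where it runs over the start. The windows of Mycn, Mycl, Mxd1, Mxd3, Mxi1 (3 windows) and Mga hold no such letters.

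The deposited values are log2 signals, made with RMA per the submitters' processing notes, and a difference of 1 is a 2-fold difference in signal. RMA usually brings arrays to a common distribution, but the deposited arrays differed in their medians (4.95 to 5.22) and spread. A pair of arrays stood apart. LT-HSC replicate 1 and ST-HSC replicate 1 had the narrowest interquartile ranges (2.49 and 2.73, against 2.82 to 3.06 in the others) and the lowest median correlations with the other arrays (0.956 and 0.968, against 0.976 to 0.985). Of 17 markers of granulocytes and monocytes, cells that the lineage gate should remove, the mean relative to all arrays was 0.72 in LT-HSC replicate 1, 1.00 in ST-HSC replicate 1 and 0.58 in MPP replicate 1, and between -0.81 and -0.22 in the other arrays. ST-HSC replicate 1 also had the highest mean of 10 markers of stroma and endothelium (1.21, with the others between -0.36 and 0.21). Its mean of 6 erythroid markers was highest too (0.79, with the others between -0.62 and 0.37). In that array the collagen gene Col1a2 read 10.85, against 4.74 and 5.18 in the other ST-HSC arrays. It read 8.75 in MPP replicate 1 and 7.64 in LT-HSC replicate 1. Emcn, on the same list as Col1a2, was lowest in ST-HSC replicate 1 (7.52). Slamf1, which encodes CD150, read 7.77 and 7.78 in LT-HSC, 7.25 to 7.46 in ST-HSC and 4.77 to 5.46 in MPP. Cd34 did not separate the gates in the same way, at 8.50 and 10.20 in the CD34- LT-HSC, 9.55 to 10.15 in ST-HSC and 10.85 or more in MPP. Flt3, a receptor of multipotent progenitors, read 5.84 and 8.49 in LT-HSC, 6.86 to 7.19 in ST-HSC and 9.43 to 9.80 in MPP. The mean of 7 progenitor markers relative to all arrays was -1.14 in LT-HSC replicate 1 and -0.05 in LT-HSC replicate 3. The latter lay above the -0.53 to -0.28 of ST-HSC. Values without LT-HSC replicate 1 thus rest on an LT-HSC array with a higher mean of these markers than ST-HSC. That array, replicate 3, was also highest in the mean of 9 long-term stem cell markers (0.96, against 0.66 in LT-HSC replicate 1). The progenitor marker Mpo was lowest there (8.74). The part of these markers in the members' differences was not tested. All differences below come from a limma fit of all 8 arrays over 17576 genes, and adjusted p-values are Benjamini-Hochberg values over those genes.

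No member of the network passed an adjusted p of 0.05 between any 2 populations. Of the 9 members tested, 0 were called by limma in ST-HSC against LT-HSC, where 0.933% of all genes were called, 0 in MPP against ST-HSC, where 0.193% were, and 0 in MPP against LT-HSC, where 0.125% were. At an unadjusted p under 0.05 the counts were 0, 0 and 1 of 9, beside 11.1%, 6.89% and 10.6% of all genes. The F test over all populations also called 0 of 9 (1 at an unadjusted p under 0.05), where 0.905% of all genes were called. The smallest adjusted p of any member was 0.612, 0.883 and 0.357 in these comparisons. The standard errors of the members' differences lay between 0.16 and 0.27, and their 95% intervals ran at most from -0.78 to 1.24. In RNA from sorted pools, fewer cells that express a gene and less RNA per cell cannot be told apart.

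**Figure D1:**
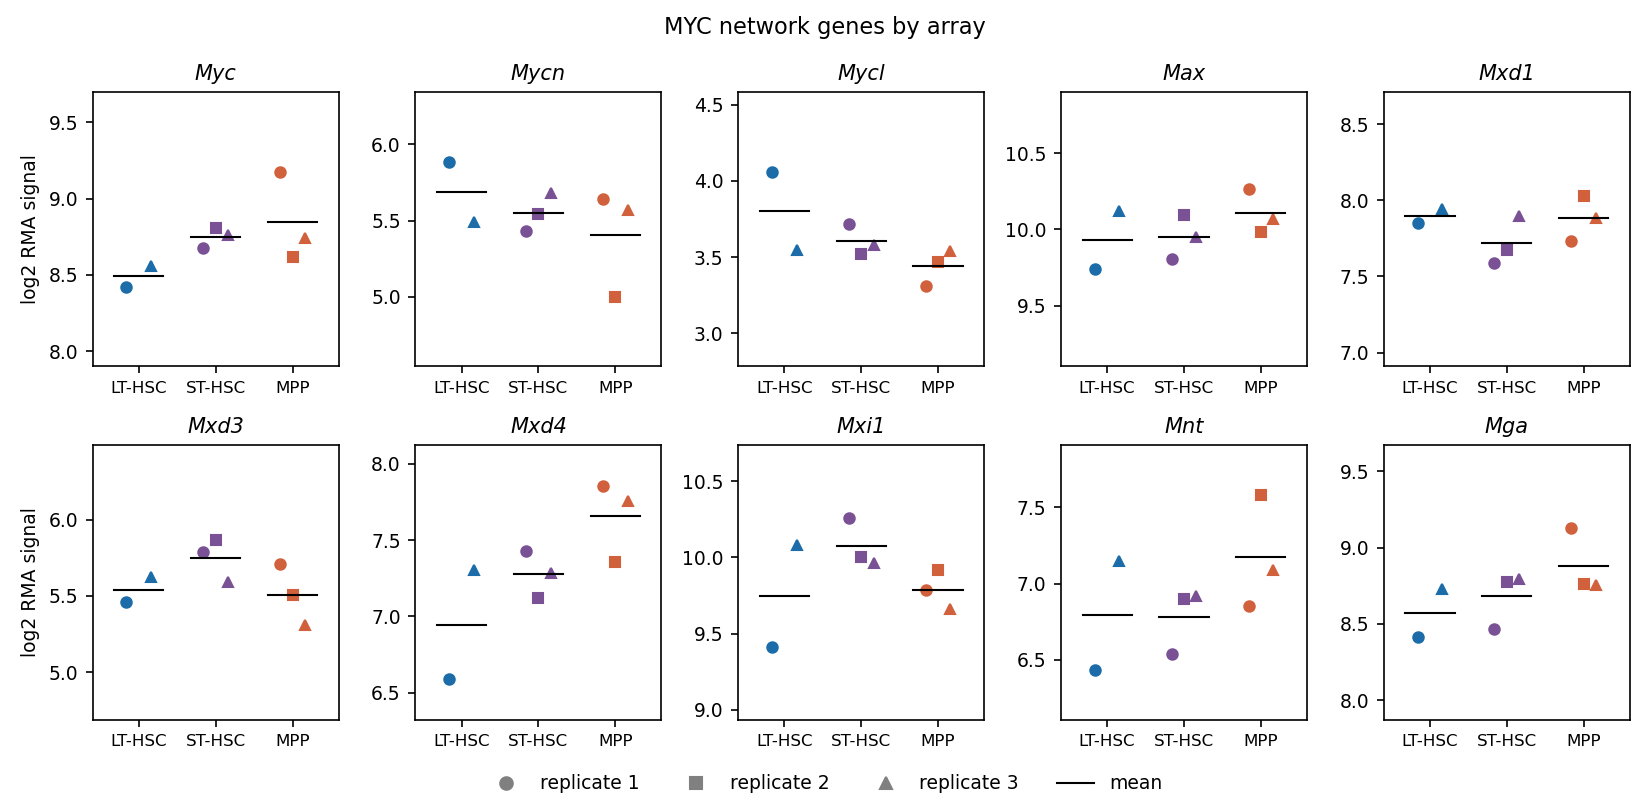
Each panel shows 1 gene as the log2 RMA signal (y axis, the same span of values in every panel) in LT-HSC, ST-HSC and MPP (x axis). Points are single arrays, symbols mark the replicate number and lines the population means (n = 2, 3 and 3). The arrays of the populations overlap in most panels, and Mxd4 shows the widest range, from 6.59 to 7.85.

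Among the activators, Myc, the member with the broadest role in growth control, read 8.42 and 8.56 in LT-HSC, 8.68, 8.81 and 8.76 in ST-HSC, and 9.18, 8.62 and 8.74 in MPP. Both LT-HSC arrays lay below every array of the other populations, and ST-HSC and MPP overlapped. LT-HSC averaged 8.49 ± 0.10 (SD, n = 2), ST-HSC averaged 8.75 ± 0.07 (SD, n = 3) and MPP averaged 8.84 ± 0.29 (SD, n = 3). The ST-HSC minus LT-HSC difference was 0.26 (SE 0.20, 95% interval -0.17 to 0.69, limma adjusted p = 0.659). The MPP minus LT-HSC difference was 0.35 (SE 0.20, 95% interval -0.08 to 0.78, limma adjusted p = 0.535). MPP minus ST-HSC was 0.10 (limma adjusted p = 0.999) and rested on MPP replicate 1, without which it was -0.07.

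Mycn, which can stand in for Myc in several mouse tissues, had the opposite order of means. It read 5.89 and 5.49 in LT-HSC, 5.43, 5.54 and 5.68 in ST-HSC, and 5.64, 5.0 and 5.57 in MPP. All populations overlapped, and 1 array, MPP replicate 2, was the lowest by a wide margin. The MPP minus LT-HSC difference was -0.28 (SE 0.23, 95% interval -0.78 to 0.22, limma adjusted p = 0.63). The ST-HSC minus LT-HSC difference was -0.14 and the MPP minus ST-HSC difference -0.15, and both turned sign when 1 array was left out: to 0.06 without LT-HSC replicate 1 and to 0.06 without MPP replicate 2.

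Mycl, the paralog known for its role in dendritic cells, had a signal below the filter of 3.88 on the mean, and it was not tested. Its arrays read 4.06 and 3.55 in LT-HSC, 3.71, 3.52 and 3.58 in ST-HSC, and 3.31, 3.47 and 3.54 in MPP. The MPP arrays lay just below the lower LT-HSC array, by under 0.01 for MPP replicate 3. Fitted without the filter, the MPP minus LT-HSC difference was -0.36 (SE 0.18, limma adjusted p = 0.547).

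Max, the shared partner through which all the other members bind the E-box, was among the steadiest. It read 9.74 and 10.12 in LT-HSC, 9.81, 10.09 and 9.95 in ST-HSC, and 10.26, 9.98 and 10.07 in MPP. The arrays of all populations overlapped, with the replicate 1 arrays of LT-HSC and ST-HSC lowest and that of MPP highest. The difference was 0.02 for ST-HSC minus LT-HSC (SE 0.19, 95% interval -0.39 to 0.44), 0.15 for MPP minus ST-HSC and 0.18 for MPP minus LT-HSC, with adjusted p-values by limma of 0.98, 0.999 and 0.719. Without LT-HSC replicate 1 the MPP minus LT-HSC difference was -0.01.

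Of the MXD repressors, Mxd4, a repressor known from differentiating cells of the mouse, had the widest range of any member, 1.26 over the 8 arrays. It read 6.59 and 7.30 in LT-HSC, 7.43, 7.12 and 7.29 in ST-HSC, and 7.85, 7.35 and 7.76 in MPP. Every MPP array lay above both LT-HSC arrays, by 0.05 at the closest, while ST-HSC overlapped both populations. The MPP minus LT-HSC difference of 0.71 (SE 0.24, 95% interval 0.18 to 1.24, a 1.64-fold higher signal) was the largest of any member in any comparison and had an unadjusted p of 0.013, but a limma adjusted p of 0.357.

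The size of the Mxd4 difference rested on 1 array. LT-HSC replicate 1, of narrowest range, stood 0.75 below the gene's mean and LT-HSC replicate 3 only 0.04 below it. Without LT-HSC replicate 3 the MPP minus LT-HSC difference was 1.07 and passed (limma adjusted p = 0.0489, where 3.5% of all genes were called), and in that setting LT-HSC is the array that stood apart alone. Without LT-HSC replicate 1 the difference was 0.35 (limma adjusted p over all alternatives from 0.0489 to 1.00). ST-HSC minus LT-HSC was 0.33 (SE 0.24, limma adjusted p = 0.644) and turned to -0.02 without LT-HSC replicate 1. MPP minus ST-HSC was 0.38 (SE 0.21, 95% interval -0.10 to 0.85, limma adjusted p = 0.883). The means in this difference use neither LT-HSC array, but its SE, interval and p-value use the spread shared by all 8 arrays. The Mxd4 SD was 0.50 in LT-HSC, 0.15 in ST-HSC and 0.27 in MPP. The difference stayed positive in every alternative, between 0.28 and 0.53, with its lowest limma adjusted p of 0.0914 under array weights.

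Mxi1, which antagonises MYC in several mouse tissues, was the only member with more than 1 probe set, and both had their highest mean in ST-HSC. Its main probe set read 9.41 and 10.08 in LT-HSC, 10.26, 10.001 and 9.96 in ST-HSC, and 9.79, 9.92 and 9.66 in MPP. All MPP arrays lay below all ST-HSC arrays, and the LT-HSC arrays fell on either side of the MPP range. The MPP minus ST-HSC difference was -0.28 (SE 0.19, 95% interval -0.71 to 0.14, limma adjusted p = 0.968), and it was negative in every alternative. ST-HSC minus LT-HSC was 0.33 (limma adjusted p = 0.612) but -0.01 without LT-HSC replicate 1. MPP minus LT-HSC was 0.04 (limma adjusted p = 0.944). The other probe set had means of 7.13 ± 0.38 for LT-HSC (SD, n = 2), 7.47 ± 0.17 for ST-HSC and 7.43 ± 0.04 for MPP (SD, n = 3 each). It gave 0.34 for ST-HSC minus LT-HSC, close to the main probe set, but -0.04 for MPP minus ST-HSC and 0.30 for MPP minus LT-HSC. The difference between the probe sets was not tested.

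Mxd3, a family member known from proliferating neural progenitors of the mouse, also had its highest mean in ST-HSC. It read 5.46 and 5.62 in LT-HSC, 5.79, 5.87 and 5.59 in ST-HSC, and 5.71, 5.50 and 5.31 in MPP. The populations overlapped, with ST-HSC replicates 1 and 2 above all other arrays. The difference was 0.21 for ST-HSC minus LT-HSC (SE 0.18, 95% interval -0.20 to 0.61, limma adjusted p = 0.711), and that of MPP minus ST-HSC was -0.24 (SE 0.17, 95% interval -0.61 to 0.12, limma adjusted p = 0.968). Both kept their sign in every alternative. MPP minus LT-HSC was -0.03 (limma adjusted p = 0.948).

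Mxd1, which in mouse granulocytes accompanies exit from the cell cycle, was the steadiest member, with a range of 0.44 over all arrays. It read 7.85 and 7.95 in LT-HSC, 7.59, 7.67 and 7.89 in ST-HSC, and 7.73, 8.03 and 7.88 in MPP. The populations overlapped throughout, and the ST-HSC mean was the lowest. The difference was -0.18 for ST-HSC minus LT-HSC (SE 0.18, 95% interval -0.57 to 0.21, limma adjusted p = 0.741). In MPP minus ST-HSC it was 0.16 (limma adjusted p = 0.999) and for MPP minus LT-HSC it was -0.02 (limma adjusted p = 0.973). The replicate 1 arrays, in which granulocyte markers were highest, held the lowest Mxd1 value of each population. Across the 8 arrays Mxd1 and the granulocyte and monocyte level had a Pearson r of -0.63 (-0.51 without the 2 arrays farthest from the median level), given as a description of arrays that also differ in range.

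Mnt, a widely expressed repressor that pairs with MAX and is known to restrain MYC, read 6.44 and 7.15 in LT-HSC, 6.54, 6.90 and 6.92 in ST-HSC, and 6.85, 7.58 and 7.09 in MPP. All populations overlapped. The highest value, MPP replicate 2, stood 0.65 above the gene's mean, and the replicate 1 array was the lowest of each population. Over the 8 arrays Mnt had a Pearson r of -0.71 with the granulocyte and monocyte level, or -0.30 without the 2 arrays farthest from the median level. MPP minus ST-HSC was 0.39 (SE 0.24, 95% interval -0.13 to 0.92, limma adjusted p = 0.921) and MPP minus LT-HSC was 0.38 (SE 0.27, limma adjusted p = 0.592). ST-HSC minus LT-HSC was -0.01 (limma adjusted p = 0.993), and it lay between -0.36 without LT-HSC replicate 1 and 0.35 without LT-HSC replicate 3.

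Mga, a large protein that combines a MAX-binding domain with a T-box and belongs to a variant polycomb complex, read 8.41 and 8.73 in LT-HSC, 8.47, 8.78 and 8.80 in ST-HSC, and 9.13, 8.76 and 8.75 in MPP. Every MPP array lay above both LT-HSC arrays, though 2 of the 3 did so by under 0.05. The MPP minus LT-HSC difference was 0.31 (SE 0.20, 95% interval -0.13 to 0.75, limma adjusted p = 0.572). MPP minus ST-HSC was 0.20 and ST-HSC minus LT-HSC was 0.11 (adjusted p by limma 0.999 and 0.878), and ST-HSC minus LT-HSC was -0.05 without LT-HSC replicate 1.

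**Figure D2:**
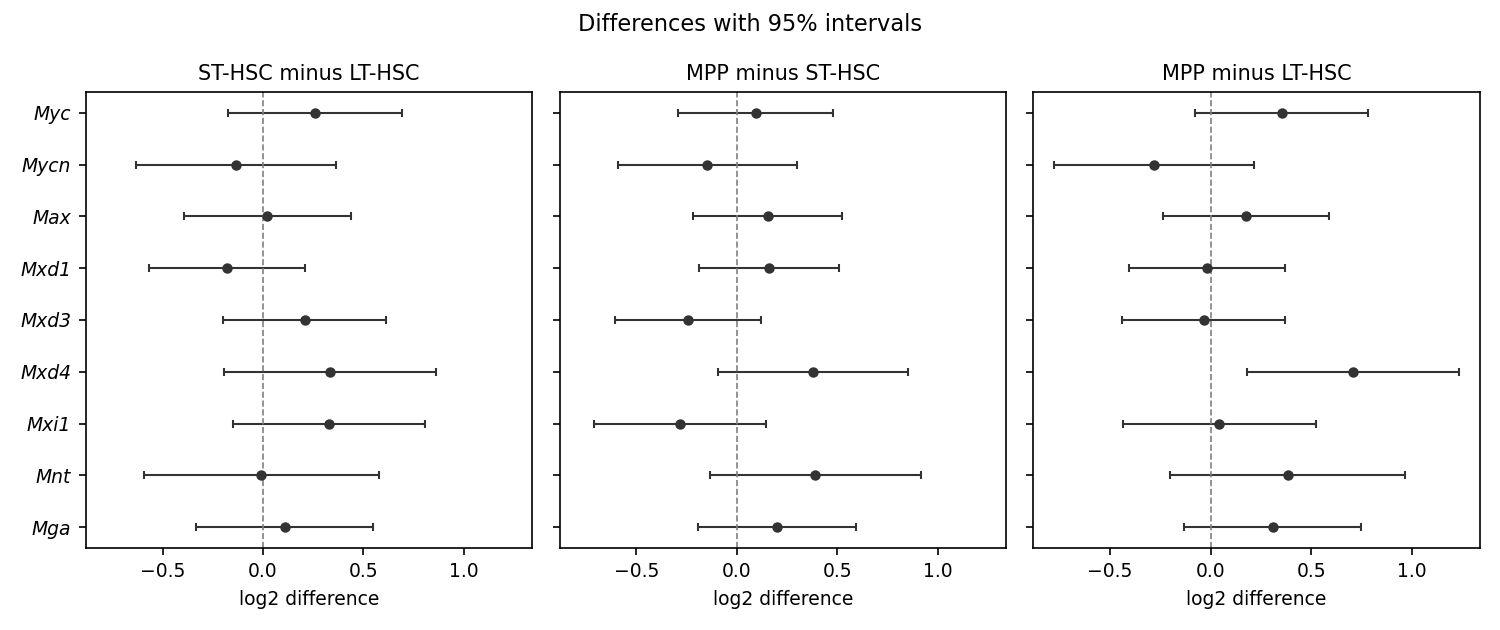
Log2 differences (x axis, points) with 95% intervals from limma (bars) are shown for the 9 members tested (y axis) in ST-HSC minus LT-HSC, MPP minus ST-HSC and MPP minus LT-HSC. All intervals include 0 except that of Mxd4 in MPP minus LT-HSC (0.18 to 1.24), before any adjustment for the number of genes.

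Groups that do not overlap were about as common among the members as among all genes. In ST-HSC against LT-HSC 1 of 9 members, Myc (higher), had groups that did not overlap, where 23.3% of all genes did. In MPP against ST-HSC it was 1 of 9, Mxi1 (lower), beside 14.2%. In MPP against LT-HSC it was 3 of 9, Myc, Mxd4 and Mga (all higher), beside 24.7%. The median difference of the 9 members was 0.11, 0.15 and 0.18 in these comparisons, where that of all genes was 0.02, 0.01 and 0.06. Differences were positive for 6 of 9 members in each comparison, beside 52%, 51.7% and 57.2% of all genes. For ST-HSC minus LT-HSC that count was 4 with quantile normalization and 7 with median centring, a scaling that moves the median of all genes by 0.11, and it was 3 without LT-HSC replicate 1. For MPP minus LT-HSC it was 6 with quantile normalization and 8 with median centring, which moves the median of all genes by 0.12, and it was 4 without LT-HSC replicate 1.

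LT-HSC replicate 1 held an extreme value for most members. It was the lowest of the 8 arrays for 6 of 10 members (Myc, Max, Mxd4, Mxi1, Mnt and Mga) and the highest for Mycn and Mycl. MPP replicate 1 was the highest for 4 (Myc, Max, Mxd4 and Mga) and the lowest for Mycl. The mean of the 9 tested members relative to all arrays was -0.26 in LT-HSC replicate 1, 0.18 in MPP replicate 1 and between -0.06 and 0.05 in the other arrays. Across the 8 arrays the interquartile range of the array had a Pearson r of 0.84 with Mga, 0.82 with Max, 0.72 with Myc and 0.70 with Mxd4. Without the 2 arrays farthest from the median range these were 0.53, 0.35, 0.67 and 0.27. For Mycl, below the filter, r was -0.87, or -0.12 without those 2 arrays. The part of the array range in the members' differences was not tested.

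**Figure D3:**
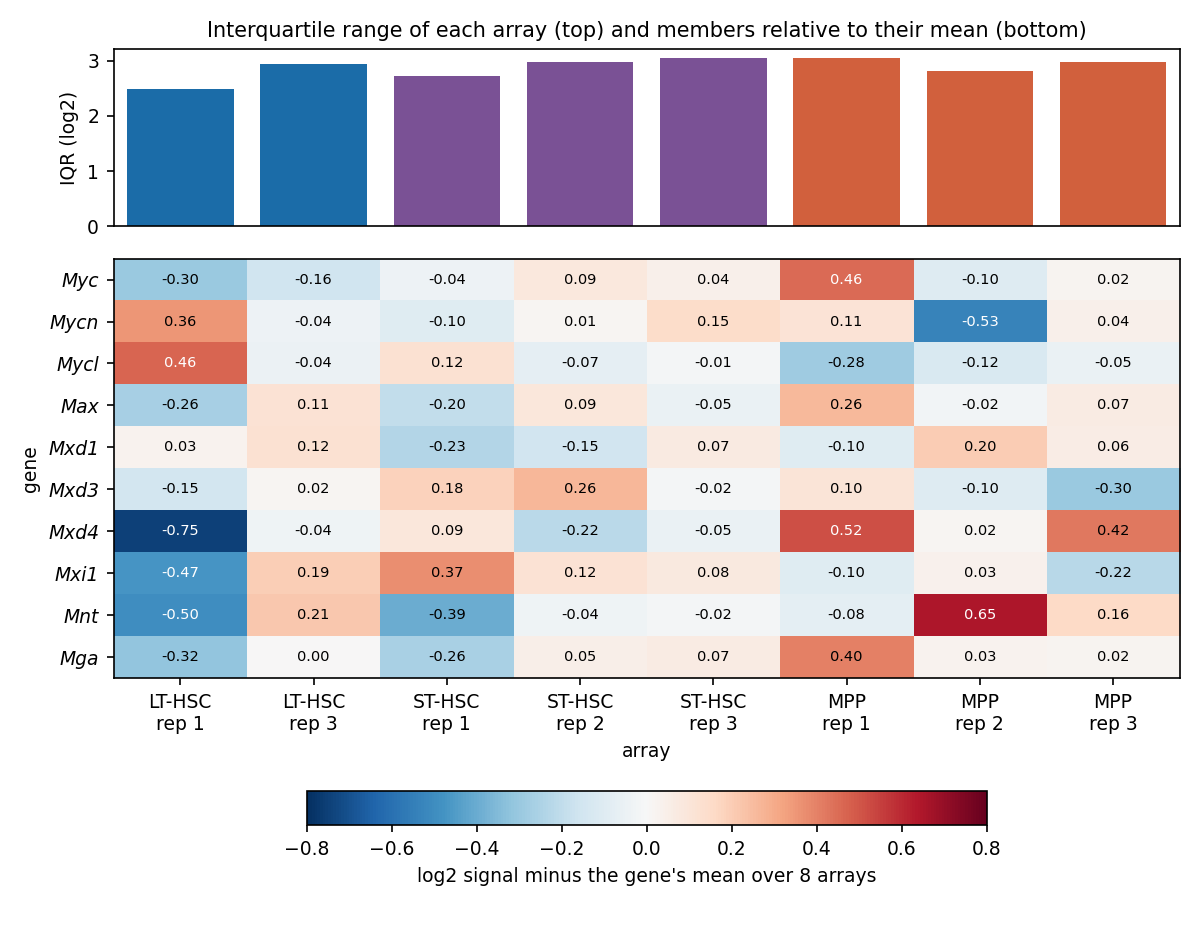
The upper panel gives the interquartile range of each array's log2 values (y axis) and the lower panel each member's log2 signal minus its own mean over 8 arrays (colour and printed number), with arrays in columns and genes in rows. LT-HSC replicate 1 has the narrowest range (2.49) and is lowest for 6 of the 10 genes.

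Of 36 pairs among the 9 tested members, 23 had a positive Pearson r over the 8 arrays. The closest pairs were Max with Mga (r = 0.92) and Myc with Mga (r = 0.86), and these were 0.90 and 0.83 for deviations from the population means. Without the 2 arrays farthest from the median of the first gene, r was 0.74 for Max with Mga but 0.22 for Myc with Mga. Myc with Max (r = 0.74) and Myc with Mxd4 (r = 0.74) were the other pairs above 0.7, and r was -0.02 and -0.06 without the 2 arrays farthest from the Myc median. Mycn with Mnt gave r = -0.77, but 0.29 without the 2 arrays farthest from the Mycn median. For Mxd1, r was -0.71 with Mxd3 and 0.70 with Mnt, and -0.33 and 0.71 without the 2 arrays farthest from the Mxd1 median. All pairs share the same 8 arrays and their differences in range.

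The genes most like Mxd4 and Myc, the 2 members of smallest F p-value, were picked by Pearson r alone. For Mxd4 the 5 closest of all tested genes over the 8 arrays were Uhmk1 (Pearson r = 0.98), Dleu7 (0.98), C2cd3 (0.97), Msl1 (0.97) and Pacs2 (0.96). For Myc they were Ripor3 (0.98), Ung (0.98), which encodes uracil DNA glycosylase, Tmem198b (0.96), Lmtk3 (0.95) and Nbas (0.95). LT-HSC replicate 1 was the lowest array for all 10 of these genes and MPP replicate 1 the highest for 9, which their choice by likeness to Mxd4 and Myc makes likely in advance.

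Around the network, the parallel branch built on MLX, which senses glucose-derived metabolites through Mlxip and Mlxipl, likewise held no called gene. Of its 3 tested genes 0 were called by limma in any comparison. At an unadjusted p under 0.05 the counts were 0, 1 and 0, beside 11.1%, 6.89% and 10.6% of all genes. Mlxip read 7.63 and 8.06 in LT-HSC, 7.14, 7.75 and 7.86 in ST-HSC, and 8.31, 8.10 and 8.23 in MPP, above every array of the other populations. Its MPP minus ST-HSC difference was 0.63 (SE 0.21, limma adjusted p = 0.414). Mlx, the shared partner of that branch, differed by 0.06 (limma adjusted p = 0.999).

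Genes that act with the network's proteins included cofactors of MYC (16 tested) and the SIN3 and histone deacetylase co-repressor of the MXD proteins and MNT (14). They also included the MGA-containing polycomb complex (12 tested). These lists had 0 members called in any comparison by limma. At an unadjusted p under 0.05 the counts in ST-HSC against LT-HSC were 4, 1 and 3, beside 11.1% of all genes. In MPP against ST-HSC they were 1, 0 and 0, beside 6.89%, and in MPP against LT-HSC 4, 2 and 3, beside 10.6%. Median ST-HSC minus LT-HSC differences were 0.23, 0.33 and 0.40, where that of all genes was 0.02. The cofactor median was 0.08 and the MGA complex median 0.18 without LT-HSC replicate 1, and 7 of the 14 co-repressor genes were then positive, against 12 with it. Without LT-HSC replicate 3, where 4.69% of all genes were called in ST-HSC against LT-HSC, 0, 2 and 1 genes of these lists rose in that comparison and 1, 3 and 1 in MPP against LT-HSC. Hcfc1, a host cell factor that MYC binds, differed by 0.56 (limma adjusted p = 0.317), the chromatin-binding subunit Rbbp7 by 0.37 (0.53) and the heterochromatin protein gene Cbx3 by 0.35 (0.481) in that comparison. In MPP against LT-HSC these were 0.58, 0.25 and 0.21 (limma adjusted p = 0.357, 0.631 and 0.627).

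Among 14 tested genes of MYC turnover and MYC-binding kinases, 2 rose in ST-HSC against LT-HSC, where 0.848% of all genes were called higher. The mitotic kinase Plk1 averaged 8.05 ± 0.24 in ST-HSC (SD, n = 3), against 6.57 ± 0.18 in LT-HSC (SD, n = 2), 1.48 higher (SE 0.27, limma adjusted p = 0.0277). Aurka, the mitotic kinase known to stabilise MYCN, averaged 7.80 ± 0.25 in ST-HSC and 6.49 ± 0.08 in LT-HSC, a difference of 1.31 (SE 0.24, limma adjusted p = 0.0321). Both are also in the cell cycle list below. Neither was called once LT-HSC replicate 1 was left out (limma adjusted p = 0.26 for Plk1 and 0.185 for Aurka), where 0.0967% of all genes were called. Their differences were then 1.36 and 1.36, about as large as with it, against an LT-HSC group of 1 array. The list had 0 calls without ST-HSC replicate 1 (0.62% of all genes) and 0 with median centring (0.592% of all genes). The ubiquitin ligase gene Huwe1 differed by 0.18 (limma adjusted p = 0.76) and the phosphatase subunit gene Ppp2r5a by 0.10 (0.89). With the replicate number as a block, where 2.69% of all genes were called in ST-HSC against LT-HSC, Skp2, a subunit of a ubiquitin ligase for MYC, joined as higher in ST-HSC than in LT-HSC (difference 1.10, limma adjusted p = 0.0467) and Aurka was lower in MPP than in ST-HSC (-0.91, limma adjusted p = 0.0186).

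Known targets of MYC mostly had positive ST-HSC minus LT-HSC differences, but none was called. Of 32 tested targets of ribosome biogenesis and the nucleolus, 32 had a positive ST-HSC minus LT-HSC difference, with a median of 0.36, and 5 of 32 a positive MPP minus ST-HSC difference, with a median of -0.08. Of 29 tested targets of metabolism, translation and growth, the counts were 26 and 9 and the medians 0.45 and -0.15. Of all genes 52% and 51.7% had a positive difference in these comparisons. By limma 0 members of either list were called in any comparison. At an unadjusted p under 0.05 there were 9 and 14 in ST-HSC against LT-HSC, beside 11.1% of all genes. In MPP against ST-HSC there were 0 and 2, beside 6.89%, and in MPP against LT-HSC 3 and 6, beside 10.6%. In ST-HSC against LT-HSC the nucleolar genes Npm1 and Ncl gave 0.08 and 0.12 (limma adjusted p = 0.895 and 0.834), the translation factor gene Eif4a1 0.18 (0.726) and the nucleotide kinase gene Nme1 0.62 (0.254). The ST-HSC minus LT-HSC medians were 0.17 and 0.22 without LT-HSC replicate 1, where 28 and 22 genes were positive. With quantile normalization they were 0.22 and 0.26, with 31 and 26 genes positive. Without LT-HSC replicate 3 they were 0.53 and 0.63. In MPP against LT-HSC the medians were 0.26 and 0.24 in the main fit, with 30 and 27 genes positive. They were 0.07 and 0.09 without LT-HSC replicate 1, with 23 and 18 genes positive. Without LT-HSC replicate 3 the MPP minus LT-HSC medians were 0.44 and 0.45. With the replicate block 0 and 1 genes of these lists rose in ST-HSC against LT-HSC, where 2.69% of all genes were called. Relative to all arrays, the 2 lists stood at -0.42 and -0.41 in LT-HSC replicate 1, and at -0.05 and -0.09 in LT-HSC replicate 3.

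Genes that MYC is known to repress had 0 calls among 13 tested in any comparison by limma. At an unadjusted p under 0.05 there were 1, 3 and 5 in ST-HSC against LT-HSC, MPP against ST-HSC and MPP against LT-HSC. These stood beside 11.1%, 6.89% and 10.6% of all genes. The medians of the 13 genes were -0.06, -0.07 and 0.11. Without LT-HSC replicate 3 the median was 0.15 in ST-HSC against LT-HSC and 0.30 in MPP against LT-HSC. Without LT-HSC replicate 1 these medians were -0.12 and -0.08, with 3 and 5 of 13 genes positive. Their sign thus depended on which LT-HSC array was kept. With the replicate block 1 rose and 1 fell in ST-HSC against LT-HSC, where 2.69% of all genes were called. In MPP against ST-HSC 1 rose with the block, where 1.52% of all genes were called. The stress-response gene Ndrg1 differed by 1.28 in ST-HSC against LT-HSC and by 1.20 in MPP against LT-HSC (limma adjusted p = 0.312 and 0.401). Its SD was 1.26 in LT-HSC (n = 2), against 0.52 in ST-HSC and 0.28 in MPP (n = 3 each). Hes1, a Notch target, differed by -0.50 and -0.29 (limma adjusted p = 0.771 and 0.842). Its SDs were 0.69, 1.02 and 0.75 in LT-HSC, ST-HSC and MPP.

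Of 30 tested genes of the cell cycle, 22 rose in ST-HSC against LT-HSC, where 0.848% of all genes did, with a median difference of 1.60 and all 30 positive. The spindle checkpoint kinase Bub1 averaged 8.03 ± 0.10 in ST-HSC (SD, n = 3), against 5.94 ± 0.26 in LT-HSC (SD, n = 2), a difference of 2.09 (SE 0.23, limma adjusted p = 0.0043). The kinetochore genes Ndc80 and Nuf2 rose by 2.01 and 2.12 and the spindle motor Kif11 by 1.88 (limma adjusted p = 0.00426 for Ndc80, 0.00574 for Nuf2 and 0.00557 for Kif11). The replication genes Pcna and Mcm6 had differences of 0.42 and 0.75 (0.423 and 0.188). The count of calls was 18 with median centring, where 0.592% of all genes were called, and 17 without ST-HSC replicate 1 (0.62%). It was 29 with the replicate number as a block (2.69%). Fits with 1 LT-HSC array are given here by size alone and do not show whether the calls hold. All 30 ST-HSC minus LT-HSC differences stayed positive in those fits. The median was 1.37 without LT-HSC replicate 1 and 1.31 with ST-HSC replicate 1 left out as well. Without LT-HSC replicate 3 it was 1.70. In MPP against ST-HSC all 30 differences were negative, with a median of -0.87 and 0 calls. At an unadjusted p under 0.05 there were 26, beside 6.89% of all genes. With the replicate number as a block 18 fell, where 1.52% of all genes were called. In MPP against LT-HSC 0 were called (23 at an unadjusted p under 0.05, beside 10.6% of all genes), with a median of 0.68. In that comparison 5 rose with the block, where 0.893% of all genes were called. The median was 0.82 without LT-HSC replicate 3 and 0.54 without LT-HSC replicate 1.

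Over the 8 arrays the cell cycle level had a Pearson r of 0.62 with Mxd3, 0.60 with Mxi1 and 0.58 with Myc. Without the 2 arrays farthest from the median cell cycle level these were 0.47, -0.04 and 0.55. For Mxd1 r was -0.66, or -0.67 without those arrays. These values describe arrays that share their populations and differences in range.

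**Figure D4:**
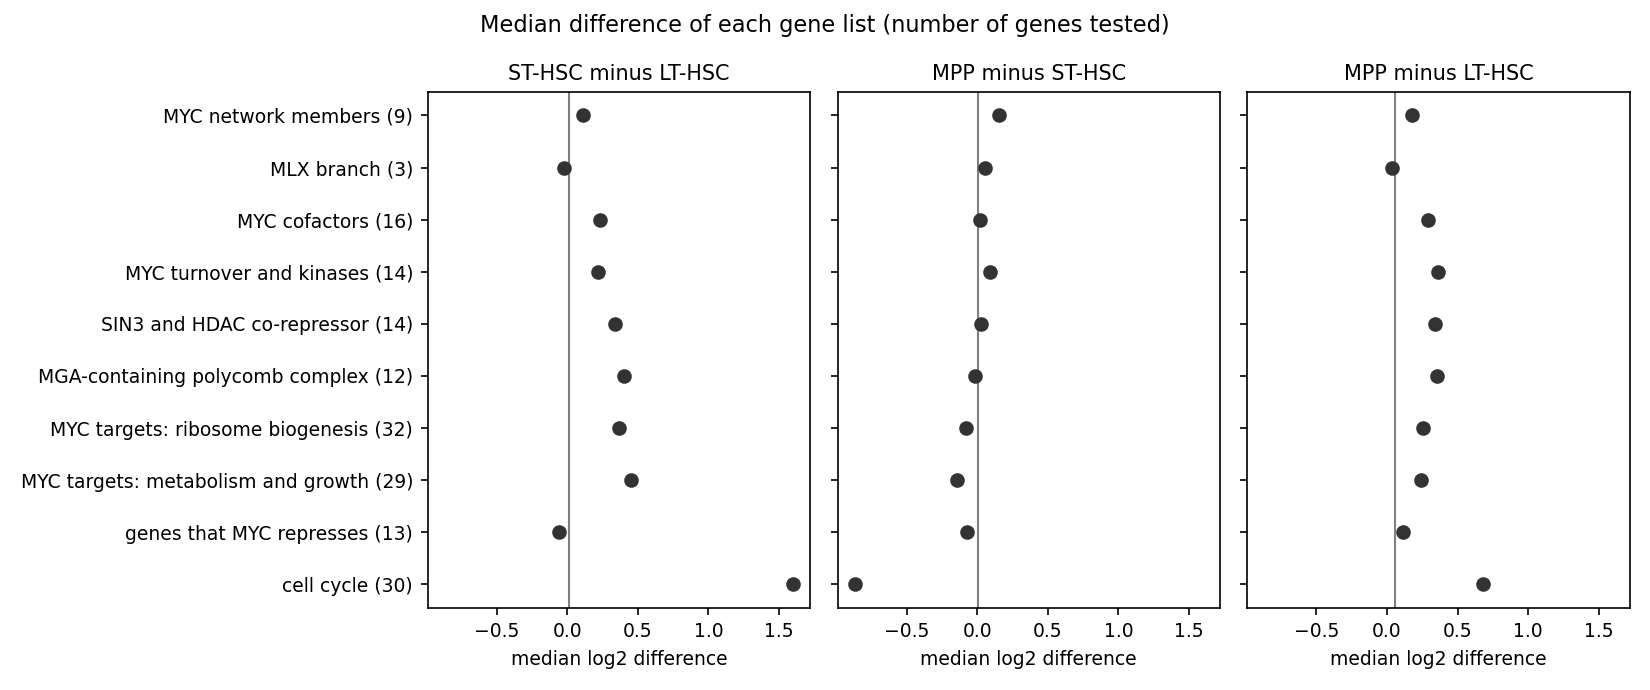
Points give the median log2 difference (x axis) of each gene list (y axis, number of genes tested in brackets) in the 3 comparisons. The grey line is the median of all 17576 genes. The network members lie at 0.11, 0.15 and 0.18 and the cell cycle list at 1.60, -0.87 and 0.68.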

How the data were processed

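The deposited table holds log2 signals for 33649 probe sets on 8 arrays. Per the submitters' processing notes the authors used RMA, whose version is not given in the sources used here. Values run from 2.05 to 12.94, and this span is the ground for taking them as log2. Per the labels' protocols, Trizol RNA was amplified (Ovation Pico WTA) and labelled with biotin. No signal over background was analysed here, and the number of arrays limits precision.

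Gene names came from the platform annotation: 23521 probe sets had 1 symbol, 1814 several and 8314 were unnamed here. Each gene took its probe set of highest mean over all arrays. The 17576 genes with a mean of at least 3.88, the 25th percentile over probe sets, were tested. One limma fit (3.58.1, R 4.3.3) held a mean per population and a shared spread, with 5 residual and 5.93 prior degrees of freedom. Genes were called at a Benjamini-Hochberg adjusted p under 0.05. The fit was tested on simulated data.

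All members are named. Of each of 9 other lists (178 entries, 163 matched), up to 4 called genes and the 2 most highly expressed others are named per comparison, and likeness is given for the 2 members of smallest F p. Members and lists were chosen with earlier results of these data known. Of 8 marker lists used to check the sort, those of granulocytes and monocytes, erythroid cells, lymphocytes and stroma held 0 called genes in any comparison by limma (at most 2 at an unadjusted p under 0.05), which does not bear on signal in single arrays. Of 9 markers of long-term stem cells, 5 fell in MPP against LT-HSC, where 0.125% of all genes were called, and 2 with median centring. Their median difference was -1.37, and -1.47 without LT-HSC replicate 1.

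Replicate numbers recur between populations. Deviations from the population means correlated at 0.15, 0.23 and 0.21 for ST-HSC and MPP arrays of equal number. For unequal numbers they lay between -0.28 and 0.07. The labels state no pairing, and the main fit held none. The replicate number entered only as a block among the alternatives. With it 2.69%, 1.52% and 0.893% of all genes were called in ST-HSC against LT-HSC, MPP against ST-HSC and MPP against LT-HSC. In the main fit these were 0.933%, 0.193% and 0.125%. For LT-HSC the 2 pairs of equal number gave 0.54 and 0.48 with ST-HSC and -0.16 and 0.10 with MPP. The deviations of 2 arrays mirror each other, so LT-HSC replicate 3 with ST-HSC replicate 1 gave -0.54. These values therefore cannot decide on a pairing of LT-HSC. LT-HSC replicate 1 with MPP replicate 2, of unequal number, gave 0.22. Alternatives covered the filter, probe set choice, scaling, array weights, an intensity trend, the replicate block, left-out arrays and fits of 2 populations.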

Additional observations from a re-analysis of the deposited data

How the results depend on the processing

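Over 18 alternatives, 486 differences of the 9 tested members were recomputed. Of these, 453 kept their direction and their side of the threshold, 32 turned sign and 1 was newly called, and the cause of each turn was not tested. The number of members called stayed at 0 in ST-HSC against LT-HSC, MPP against ST-HSC and the F test. In MPP against LT-HSC it was 0 to 1 when single arrays were left out, the 1 being Mxd4 at 1.07 without LT-HSC replicate 3 (limma adjusted p = 0.0489). The smallest limma adjusted p of any member ranged from 0.0865 to 0.931, from 0.0914 to 1.00, from 0.0489 to 1.00 and from 0.0787 to 0.824 in these 3 comparisons and the F test. With the replicate number as a block 0 members were called, with smallest adjusted p of 0.369, 0.494 and 0.112.

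Median centring turned Mxd1 (0.11) and Mxd3 (0.0876) in MPP minus LT-HSC and Mnt (0.10) in ST-HSC minus LT-HSC. Quantile normalization turned Max (-0.10) and Mga (-0.0573) in ST-HSC minus LT-HSC, and Mxd3 (0.053) and Mxi1 (-0.0679) in MPP minus LT-HSC. Array weights turned Mxi1 in MPP minus LT-HSC (-0.0224) and Mnt in ST-HSC minus LT-HSC (0.0745). Leaving out LT-HSC replicate 1 and ST-HSC replicate 1 together turned Mycn (0.12), Max (-0.10), Mxd4 (-0.10) and Mxi1 (-0.10) in ST-HSC minus LT-HSC, and Max (-0.0129) and Mxi1 (-0.29) in MPP minus LT-HSC.

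With single arrays left out, ST-HSC minus LT-HSC ran from -0.33 to 0.0638 for Mycn, from -0.17 to 0.21 for Max, from -0.023 to 0.69 for Mxd4, from -0.0056 to 0.66 for Mxi1, from -0.36 to 0.35 for Mnt and from -0.0508 to 0.27 for Mga. MPP minus LT-HSC ran from -0.0129 to 0.36 for Max, from -0.0916 to 0.0584 for Mxd1, from -0.14 to 0.0649 for Mxd3 and from -0.29 to 0.38 for Mxi1. MPP minus ST-HSC ran from -0.0709 to 0.21 for Myc and from -0.27 to 0.0555 for Mycn. Where 1 LT-HSC array is left out, the other is assumed to vary like the other populations. The alternatives on the other gene lists were chosen after seeing the data. With 2 LT-HSC arrays, differences near the standard errors of 0.16 to 0.27 could not be resolved, and larger ones could be missed. That of Mxd4 in MPP minus LT-HSC, 0.71 with an SE of 0.24, had a limma adjusted p of 0.357. The lack of calls therefore does not show that members were equal between populations.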
